A study of Mus musculus with 36 samples.

Results

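Nanoceria are cerium oxide nanoparticles, and their response on the ground was followed in C2C12 cells, an established line of mouse myoblasts (muscle precursor cells), by counting polyadenylated RNA per gene. The comparison held 6 of the 18 polyadenylated-RNA libraries of the study: 3 from cells kept on land with nanoceria and 3 from cells kept on land without, chosen by the treatment and regime in their labels. The treated units carried 100 µg/ml of nanoceria, coated with serum, in a reservoir of culture medium, and the controls carried medium alone. Both groups grew as proliferating cells on coverslips in sealed flight hardware in a ground run made after the space experiment, and both were fixed in RNAlater. The remaining 12 libraries came from the same line with or without nanoceria in space, either without or with gravity in the wording of the labels. Each library is named for its own experiment unit, so replicates are separate units of 1 cell line, not animals. All differences below are nanoceria minus control. Values in 6 libraries are listed as control 1, 2 and 3, then nanoceria 1, 2 and 3.

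Cerium oxide at the nanoscale can switch between 2 oxidation states and is known for taking up superoxide and hydrogen peroxide. Cells take up such particles mostly by endocytosis, and they end up in endosomes and lysosomes. NRF2 is the transcription factor that switches on antioxidant and glutathione genes under oxidative stress. A C2C12 myoblast divides while it keeps factors such as Myf5, and it leaves the cycle, turns on Myog and fuses into fibres when it differentiates.

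The land libraries held 3380080 to 6783939 counts without nanoceria and 3885941 to 6720185 with it. Most counts fell on 6 dominant genes: Lars2, Gm23935, Gm15564, Gm24270, Gm24187 and Gm25911. In the controls they took 65.3% ± 13.9 of counts (SD, n = 3), and in the treated libraries 65.6% ± 7.06 (SD, n = 3). This left 1245067 to 2485435 counts for all other genes. Outside those genes, transcripts of the mitochondrial genome took 1.16%, 0.950% and 1.44% of counts in the controls and 0.485%, 0.174% and 1.45% with nanoceria. Nanoceria 1 and 2 were thus below every control and nanoceria 3 was level with the highest, and a 2-sided exact permutation test gave p = 0.4, where 3 against 3 cannot go below 0.1. Pairwise correlations of log2 expression across genes were 0.748 to 0.909 among controls, 0.697 to 0.820 among nanoceria libraries and 0.735 to 0.869 between the groups. Nanoceria 3 had the lowest median correlation with the other libraries, 0.735. The defining marker Myod1 was nearly absent, with 8, 3 and 34 counts in the controls and 0, 0 and 15 with nanoceria, whereas Des, the muscle intermediate filament, had 174 to 1330 counts in every land library. Summed markers of macrophages reached 4.70 to 105 CPM (counts scaled to a common total) outside the dominant genes in controls and 11.5 to 78.9 with nanoceria, and came mostly from Cd68 (510 counts over the 6 libraries), while Adgre1 and Itgam were at 0.

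Differences between single genes were large, and none was beyond the spread after adjustment. With edgeR's quasi-likelihood test over 11558 genes, 0 genes (0%) had an adjusted p under 0.05, and the smallest adjusted p was 0.310. At an unadjusted p under 0.05, 619 genes were higher with nanoceria (5.36% of genes tested) and 564 were lower (4.88%), together 1183 where 578 would be expected if no gene differed. That excess depends on the fit. From the 6 land libraries alone, without the space groups to help set the spread, 520 of 9315 genes were under 0.05. The smallest adjusted p of that edgeR fit was 0.799. Limma voom also called 0, and the DESeq2 Wald test called 164, of which 114 were higher and 50 lower. Leaving out the filter on low counts gave 502 calls, and leaving out nanoceria 2 or nanoceria 3 gave 1 call each, Ing3 and Gm12319. For 428 genes (3.70%) every nanoceria library lay above every control, and for 741 (6.41%) every nanoceria library lay below. Among the genes at an unadjusted p under 0.05, the median log2 difference was 2.53 in the higher set, with a median SE of 0.93, and -2.14 in the lower set, with a median SE of 0.83. The common biological coefficient of variation was 0.659. Every gene named below missed the adjusted threshold, so its values describe these 6 libraries.

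For naming single genes, only those were taken whose groups do not overlap, so the separation itself is no finding. Among the 12 of these with the smallest p that were higher with nanoceria were a chromatin reader, a histone acetyltransferase and the receptor of insulin-like growth factors. Ing3, a subunit of a histone acetyltransferase complex, was at 7.30, 6.90 and 4.60 CPM in controls and 254, 21.2 and 213 CPM with nanoceria, where CPM from here on use the TMM-scaled library. Nanoceria 1 and 3 were far above nanoceria 2, and the log2 difference was 4.69 ± 0.84 (SE; edgeR adjusted p = 0.310). Pdp2, the phosphatase that activates pyruvate dehydrogenase, was at 14.7, 7.41 and 12.2 CPM in controls and 20.7, 182 and 249 CPM with nanoceria. Its log2 difference was 3.71 ± 0.88, and here nanoceria 1 lay close to the controls. Crebbp, a histone acetyltransferase and coactivator, was at 67.3, 65.2 and 102 CPM in controls and 1080, 250 and 276 CPM with nanoceria. Its log2 difference of 2.78 ± 0.73 became 1.75 without nanoceria 1. Chuk, the kinase IKK-alpha of the NF-kappa-B pathway, was at 8.99, 7.41 and 6.24 CPM in controls and 67.7, 46.9 and 14.0 CPM with nanoceria, a log2 difference of 2.50 ± 0.63. Msx1, a homeobox factor that holds back myogenic differentiation, was at 6.32, 1.79 and 4.60 CPM in controls and 21.5, 8.82 and 62.2 CPM with nanoceria. Its log2 difference was 2.84 ± 0.73, or 1.86 without nanoceria 3. In Crebbp and Msx1, 1 nanoceria library stood well above the other two, in Chuk 2 of them were well above the third.

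The other members of that set show the same uneven heights. Ubr4, a ubiquitin ligase that recognises protein N-termini, was at 27.0, 18.7 and 10.5 CPM in controls and 710, 94.2 and 46.5 CPM with nanoceria, and its log2 difference of 3.91 ± 0.95 became 1.92 without nanoceria 1. Phactr4, a regulator of actin and protein phosphatase 1, reached 273 CPM in nanoceria 2 and 18.2 CPM or less in every other land library. Its log2 difference of 4.76 ± 1.14 became 1.88 without that library. Wdr59, a component of the nutrient-sensing GATOR2 complex, reached 141 CPM in nanoceria 3 and 2.96 CPM or less elsewhere. Without nanoceria 3 its log2 difference of 5.11 ± 1.32 became 0.90, with an unadjusted p of 0.31 from the edgeR fit. Mospd3 (2.96 ± 0.72, or 1.70 without nanoceria 3), Plekhb1 (4.76 ± 1.23) and Gm12319 (6.05 ± 1.16, with 3, 0 and 0 counts in controls and 43, 119 and 4 with nanoceria) complete the set beside Igf1r, described with its pathway.

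The 12 lower genes included the kinases Csk and Sgk1 and the replication factor Dbf4. Sowahc was at 10.8, 14.8 and 19.4 CPM in controls and 2.22, 1.00 and 1.95 CPM with nanoceria, a log2 difference of -3.13 ± 0.69 that stayed between -2.81 and -3.36 when any 1 land library was left out. Pgm2, an enzyme of ribose and sugar phosphate metabolism, was at 19.0, 41.7 and 84.5 CPM in controls and 1.48, 2.20 and 5.21 CPM with nanoceria, a log2 difference of -4.02 ± 0.81 (edgeR adjusted p = 0.310). In both genes the lowest control was over 3 times the highest treated library. Csk, the kinase that restrains Src, was at 25.1, 74.4 and 87.7 CPM in controls and 14.4, 17.6 and 10.1 CPM with nanoceria, a log2 difference of -2.14 ± 0.58. Sgk1, a kinase induced by serum and glucocorticoids, was at 16.9, 117 and 81.8 CPM in controls and 3.33, 13.2 and 9.11 CPM with nanoceria, a log2 difference of -3.05 ± 0.83. Dbf4, the activating subunit of the replication kinase Cdc7, was at 18.5, 16.4 and 11.8 CPM in controls and 0.740, 3.41 and 0.325 CPM with nanoceria, a log2 difference of -3.27 ± 0.78. Leaving out any 1 land library moved none of these 5 log2 differences by over 1.5 times.

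The remaining 7 lower genes were Katnbl1 (-4.91 ± 1.05), Mmachc (-5.26 ± 1.34), Kiz (-2.14 ± 0.56), Gadd45gip1 (-2.15 ± 0.59), Mettl6 (-2.66 ± 0.76), Casp4 (-2.61 ± 0.75) and Btc (-5.59 ± 1.60), each with its SE on the log2 scale. Their known roles run from cobalamin processing (Mmachc) and the centrosome (Kiz) to the mitochondrial ribosome (Gadd45gip1), inflammatory cell death (Casp4) and signalling through the EGF receptor (Btc, a ligand). Control 3 was the highest library for Katnbl1, Mmachc, Kiz, Mettl6 and Btc. Without it the log2 differences were -3.10 for Katnbl1, -2.79 for Mmachc, -1.51 for Mettl6 and -3.10 for Btc. Btc had 48, 8 and 199 counts in controls and 0, 6 and 0 with nanoceria, so 1 library carries its remaining signal in the treated group, and its log2 difference was -10.20 without nanoceria 2. For Gadd45gip1, leaving out control 2 gave -1.37.

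**Figure D1:**
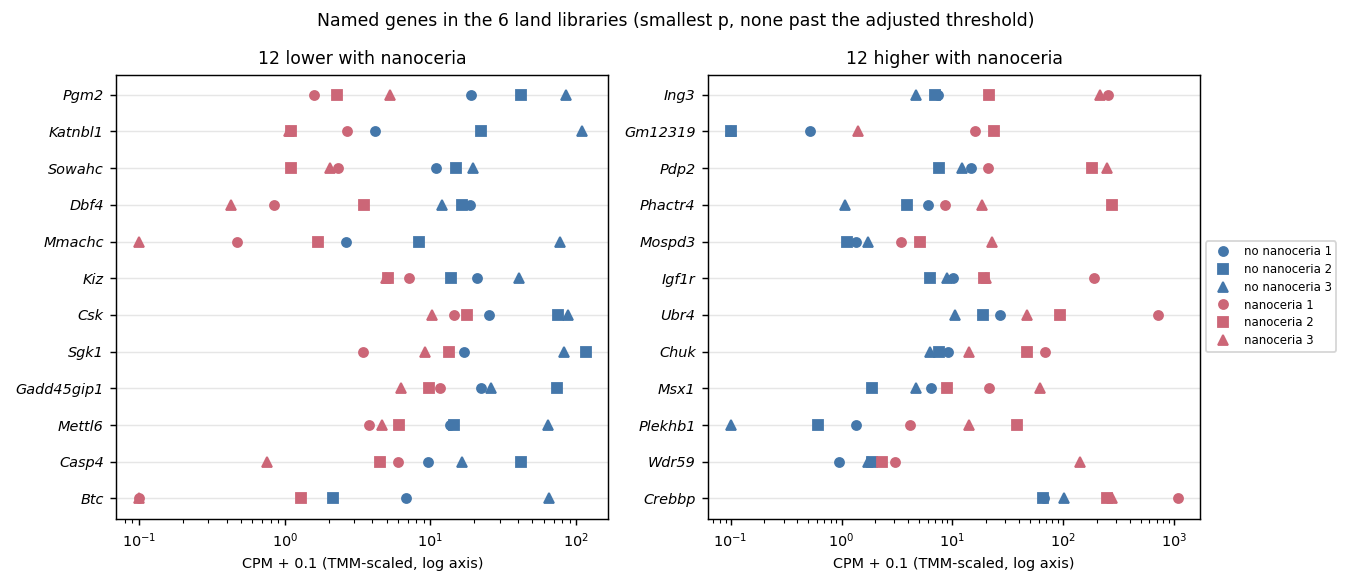
CPM plus 0.1 (log axis, TMM-scaled) of the 12 genes with the smallest p in each direction in the 6 land libraries, with controls in blue and nanoceria libraries in red. The genes were chosen among those whose groups do not overlap, and the higher genes are often carried by a single nanoceria library, such as Phactr4 at 273 CPM or Wdr59 at 141 CPM.

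Genes far more abundant in 1 library than in the next were counted in each library. A gene was counted for the library in which it reached at least 100 CPM and at least 10-fold the second-highest land library, a rule chosen after the counts were seen. There were 134 such genes: 0, 1 and 7 in the controls and 81, 20 and 25 in the nanoceria libraries. No test was made, since the rule came from these counts. In nanoceria 1 they included Cblb, a ubiquitin ligase of muscle atrophy, with 59, 34 and 48 counts in controls and 5580, 525 and 35 with nanoceria, so its second library, nanoceria 2, was also well above the controls. Tle1, a corepressor, had 4310 counts in nanoceria 1 against 18 to 94 elsewhere, and Usp37, a deubiquitinase, 3065 against 13 to 97. In nanoceria 2, Nbea, a protein of membrane trafficking, had 2101 counts against 10 to 31 elsewhere, and the mitotic kinesin Kif23 had 871 against 2 to 16. In nanoceria 3, Trak2, an adaptor of mitochondrial transport, had 7326 counts against 10 to 34, and Acat2, a thiolase of sterol synthesis, had 3409 against 1 to 116. By the rule, no such gene can belong to more than 1 library.

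Of the 619 genes higher at an unadjusted p under 0.05, 124 were of this kind, as were 8 of the 564 lower ones, which repeats the split above because the rule sets the direction of such a gene. With DESeq2 size factors the groups held 7 and 139 such genes, and with CPM of counts outside the dominant genes 17 and 115. The same count in space without gravity was 0 without nanoceria and 2 with it. In space with gravity it was 2 and 31, all 31 in replicate 3 of the treated group, a library of 23858 counts. In space without gravity the counts were 0 and 3 with DESeq2 size factors and 2 and 10 outside the dominant genes. In space with gravity they were 1 and 36, and 4 and 341, with all 36 and all 341 in that same small library. At an equal depth of 1245067 counts, the controls held 15249, 14467 and 13396 genes and the nanoceria libraries 13154, 13574 and 12733 (2-sided exact permutation p = 0.2). Summed neuron markers, the highest being Stmn2, stood at 285 CPM outside the dominant genes in nanoceria 3 and at 29.4 to 84.8 in the other land libraries, and their part in these counts was not tested.

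**Figure D2:**
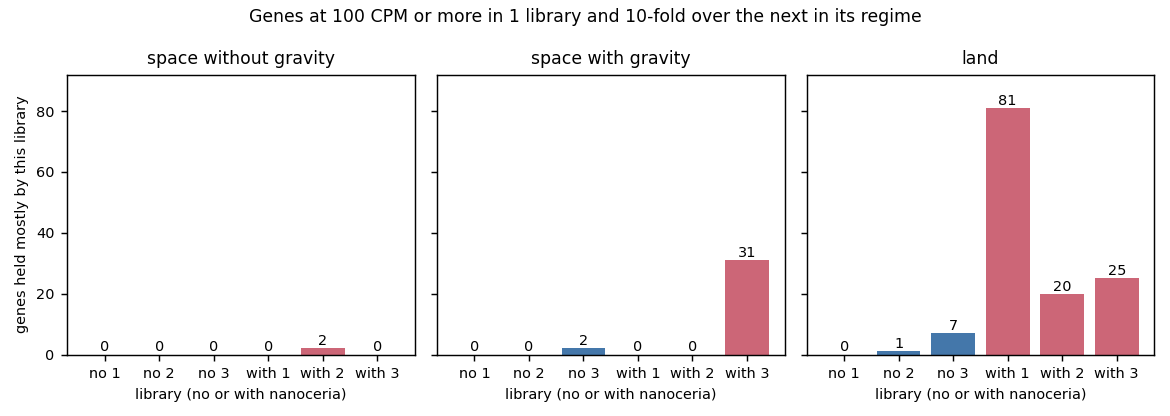
Number of genes (bars) at 100 CPM or more in 1 library and at least 10-fold the next library of the same regime, for each library without (blue) and with (red) nanoceria. On land the 3 nanoceria libraries hold 81, 20 and 25 such genes and the controls 0, 1 and 7, and the bar of 31 in space with gravity belongs to the library of 23858 counts.

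Genes of muscle differentiation were the list with the lowest median. Of 31 members, 12 had enough counts to be tested. Their median log2 difference was -2.58, against -0.03 over all genes, and 10 of the 12 were negative. At an unadjusted p under 0.05, 5 were lower and 0 higher, and in 5 the nanoceria libraries lay wholly below the controls, where these shares were 4.88% and 6.41% of all genes. Tnnt3, fast troponin T, had 90, 3 and 12 counts in controls and 0 in each nanoceria library, so its summed level was at least 26.8-fold lower if 3 counts are allowed over the treated group. Tnnc1, the calcium-binding subunit of troponin in slow muscle, had 65, 5 and 9 counts in controls and 2, 0 and 0 with nanoceria. Its log2 difference was -4.32 ± 1.31, or -7.78 without nanoceria 1. Casq2, a calcium store of the sarcoplasmic reticulum, had 64, 13 and 9 counts against 0, 7 and 0. Its log2 difference was -3.19 ± 1.01, or -7.94 without nanoceria 2, so the size of both differences rests on few counts in 1 treated library. Myl4, the embryonic myosin light chain, had 241, 1 and 4 counts against 1, 5 and 0, and Tnnt2, cardiac troponin T, 135, 9 and 4 against 6, 8 and 3. In both of these, controls 2 and 3 were at the level of the treated libraries.

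One control library held most of these transcripts. Control 1 was the highest land library for 28 of the 31 members and held 66.6% of the list's land counts. The list took 0.113% of the counts outside the dominant genes in control 1, 0.0202% and 0.00999% in controls 2 and 3, and 0.00874%, 0.0109% and 0.0214% with nanoceria. A 2-sided exact permutation test of the shares gave p = 0.5. Ckb, the creatine kinase of brain and immature muscle, made up 148 of the 298 list counts of nanoceria 3. Without that gene, a choice made after the counts were seen, the shares were 0.110%, 0.0186% and 0.00958% in the controls and 0.00796%, 0.0103% and 0.0108% with nanoceria. Control 2 then lay above every treated library and control 3 within their range. Members too low to be tested had the same profile. Myog, the factor that starts terminal differentiation, had 44, 0 and 12 counts in controls and 0 in each nanoceria library. Mymk, which drives fusion, had 123, 5 and 3 against 0, 4 and 3, and Ckm, muscle creatine kinase, had 75, 0 and 2 against 0 in each. Ttn, the giant spring of the sarcomere, was tested and had 308, 6 and 6 counts against 6, 4 and 0, a log2 difference of -3.99 ± 2.01. Without control 1 the list's median was -0.68, with 3 of 12 members lower at an unadjusted p under 0.05. In the 2 remaining controls against 3 treated libraries, 5 of 12 members (41.7%) lay wholly below, against 10.5% of all genes, and 1 wholly above. That count was made for this list alone, leaving out the control that held most of its counts, so it is a description and no test. It rests on few counts, since only 1 member had a mean of at least 50 counts over all 18 libraries, with a log2 difference of 0.19. The list's median was -1.44 with limma voom, and -0.44 over the 6 members tested when the land libraries alone were fitted. The calls fell with it, to 1 of 12 members lower with voom, where the unadjusted p was 0.080 for Tnnc1 and 0.14 for Tnnt3, and to 1 of 6 in the land fit.

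Tnnc1 is shown because its counts were low in every treated library and its upstream window holds sites of the kind that MYOD-family factors bind. Its counts in controls 2 and 3 were also low, at 5 and 9. The window is the 250 bases before the RefSeq start on GRCm38.p6, chr14:31208062-31208311, plus strand, with each CANNTG (E-box, a palindromic pattern read on both strands) in capitals. There were 2 matches, and 66.0% of 27025 gene windows of this length hold at least 1. Since the window was chosen for holding such sites, the matches are no finding.
Tnnc1: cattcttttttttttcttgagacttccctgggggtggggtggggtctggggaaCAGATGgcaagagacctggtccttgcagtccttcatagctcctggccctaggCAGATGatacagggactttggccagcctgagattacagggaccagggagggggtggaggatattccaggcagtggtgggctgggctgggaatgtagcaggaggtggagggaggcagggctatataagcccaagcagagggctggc

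**Figure D3:**
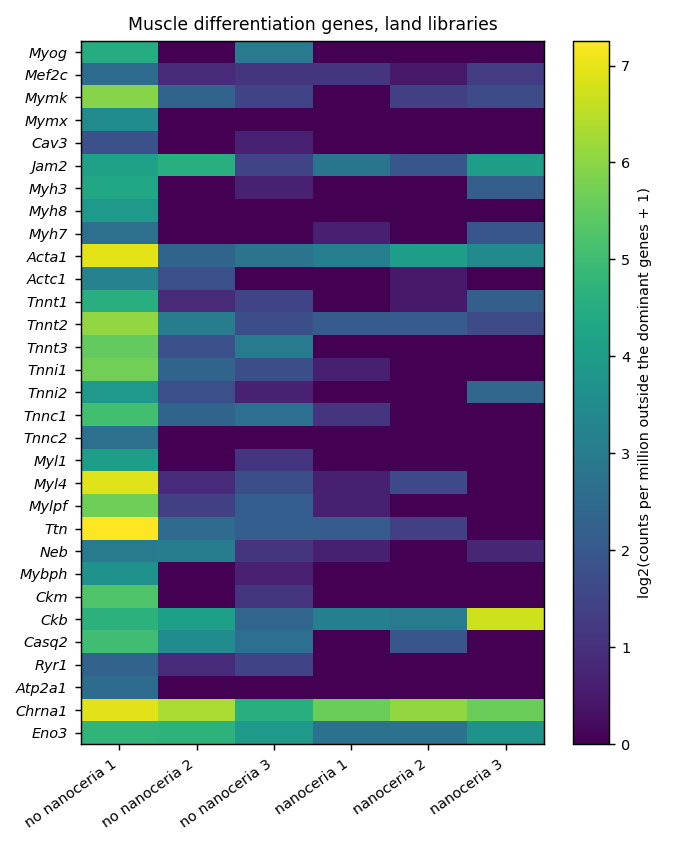
The 31 muscle differentiation genes (rows) in the 6 land libraries (columns), coloured by log2 of CPM outside the dominant genes plus 1. Control 1 is the brightest column for 28 of the 31 genes, while in controls 2 and 3 the list takes 0.0202% and 0.00999% of counts, against 0.00874% to 0.0214% in the nanoceria columns.

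Genes of myoblast identity had a median log2 difference of 0.96 over the 14 of 18 members tested, the highest of the 27 lists. At an unadjusted p under 0.05, 3 were higher and 0 lower (5.36% and 4.88% of all genes). For 2 of these 3, Six4 and Mef2a, the sign turned without nanoceria 1. The 7 transcription factors tested had a median of 0.70, with 6 positive. The 7 adhesion and filament genes had a median of 1.22, with 5 positive. Myod1 was the negative factor, at -1.41, or 0.74 without control 3. Myf5, the early myogenic factor, was the member that separated the groups. It had 195, 147 and 97 counts in controls and 433, 813 and 260 with nanoceria, a log2 difference of 2.07 ± 0.63 (edgeR adjusted p = 0.314), and the difference stayed between 1.94 and 2.35 when any 1 land library was left out. Every treated library was above every control. Six4, a homeobox factor upstream of myogenesis, had 18, 5 and 173 counts in controls and 3074, 17 and 13 with nanoceria, so its log2 difference of 4.25 ± 1.97 became -2.39 without nanoceria 1. Mef2a, a cofactor of myogenic factors, had 171, 59 and 37 counts against 538, 64 and 34, and its log2 difference of 2.11 ± 0.80 became -0.51 without nanoceria 1. Des had 471, 345 and 281 counts against 174, 589 and 1330, a log2 difference of 1.32 ± 0.67, with treated libraries on both sides of the controls. Pax7, the factor of satellite cells, had 33 counts over the 6 libraries and was not tested.

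The insulin-like growth factor axis, which drives growth and survival of muscle cells, had a median of 0.84 over 15 members, with 2 higher and 1 lower at an unadjusted p under 0.05, against 5.36% and 4.88% of all genes. The median was -0.17 without nanoceria 3, 0.10 without nanoceria 1 and 0.30 without control 2, so its sign rests on nanoceria 3. Among the receptors, Igf1r was at 10.1, 6.14 and 8.87 CPM in controls and 189, 19.2 and 19.9 CPM with nanoceria, a log2 difference of 3.17 ± 0.77. All treated libraries were above all controls, and the difference was 1.22 without nanoceria 1. Among the ligands, Igf1 had 40, 0 and 341 counts in controls and 0, 6 and 2600 with nanoceria, which gave a log2 difference of 2.85 ± 2.11, and Igf2 had 40, 10 and 60 against 2, 7 and 17, a log2 difference of -1.85 ± 0.86. The Igf2 difference was -0.67 without control 3. Igfbp2, a binding protein, had 13, 7 and 8 counts against 5, 11 and 68, so its log2 difference of 2.06 ± 0.94 rests on nanoceria 3 and was 0.01 without it. In the atrophy and myostatin list (13 tested, median 0.67, 2 higher), Cblb was one of the 2, with a log2 difference of 6.06 ± 1.62 that became 2.44 without nanoceria 1. Fst, the inhibitor of myostatin, was the other, with 97, 20 and 40 counts against 35, 68 and 334 and a log2 difference of 2.08 ± 0.95 that became 0.35 without nanoceria 3.

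Members of the NRF2 pathway lay on both sides of 0. Its 25 members had a median of -0.22, with 1 higher and 1 lower at an unadjusted p under 0.05 (5.36% and 4.88% of all genes). The median was 0.02 without control 1. Of the 7 glutathione genes 6 were negative, and of the 5 quinone and haem genes 4 were positive. Among the glutathione genes, Slc7a11, the cystine importer that feeds glutathione synthesis, had 383, 799 and 257 counts in controls and 74, 123 and 5 with nanoceria. Every treated library was below every control, and the log2 difference was -2.67 ± 0.99 (edgeR adjusted p = 0.367). Without control 2 it was -1.91, with an unadjusted p of 0.085 from the same fit. Gclm, the modifier subunit of the enzyme that joins glutamate and cysteine, had 1910, 895 and 175 counts against 126, 399 and 199, a log2 difference of -1.53 ± 0.77, and the groups overlapped through control 3. Gclc, its catalytic subunit, was at 37.9, 36.3 and 8.87 CPM against 13.0, 17.2 and 26.7 CPM, a log2 difference of -0.55 ± 0.67. Like these 3, the following genes are known NRF2 targets, and they were positive: Hmox1, haem oxygenase, at 1.01 ± 0.65, Txnrd1, thioredoxin reductase, at 0.85 ± 0.81, and Nqo1, a quinone reductase, at 0.80 ± 0.88. Each of these 3 had overlapping groups, and without nanoceria 3 the sign turned for Txnrd1 (-0.34) and Nqo1 (-0.07), while Hmox1 was 0.26 without nanoceria 1. Bach1, the repressor of Hmox1, had 61, 29 and 22 counts in controls and 11, 645 and 22 with nanoceria, and its log2 difference of 2.60 ± 0.90 became -0.45 without nanoceria 2. Besides Slc7a11, 2 members separated the groups, both higher with nanoceria: Gstm1, a glutathione transferase, at 0.95 ± 0.54 and G6pdx, the first enzyme of the pentose phosphate route, at 0.91 ± 0.55. Over all genes, 3.70% lay wholly above the controls and 6.41% wholly below.

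Slc7a11 is shown because it was the member of the NRF2 list that was lower at an unadjusted p under 0.05 and because stress factors are known to act on its start. The window is the 250 bases before the RefSeq start on GRCm38.p6, chr3:50443614-50443863, minus strand, written 5′ to 3′ along the gene. Capitals mark matches on either strand to TGATGNAA, the core of an element bound by ATF4 with C/EBP factors, and to TGACNNNGC, the core of the antioxidant response element bound by NRF2. The window held 2 matches to the first, found in 3.53% of 27025 gene windows, and 0 to the second, found in 10.1%.
Slc7a11: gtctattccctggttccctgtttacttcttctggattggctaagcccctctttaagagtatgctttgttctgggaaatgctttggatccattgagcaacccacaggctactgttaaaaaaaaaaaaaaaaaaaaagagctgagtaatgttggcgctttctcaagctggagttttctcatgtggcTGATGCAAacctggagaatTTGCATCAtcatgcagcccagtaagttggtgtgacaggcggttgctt
The list of ATF4 and unfolded protein response genes, tested as a group of 29, had a median of 0.39 with 0 members at an unadjusted p under 0.05 in either direction, and a median of -0.05 without nanoceria 1.

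Enzymes that remove superoxide and peroxide had a median of -0.20 over 24 members tested, or 0.18 without control 2. At an unadjusted p under 0.05, 0 were higher and 1 lower, against 5.36% and 4.88% of all genes. The dismutases Sod1 and Sod2 were at 0.66 ± 0.75 and 0.60 ± 0.71, both with overlapping groups, and Sod2 was at -0.51 without nanoceria 3. Catalase (Cat) had 840, 367 and 131 counts in controls and 103, 343 and 124 with nanoceria, a log2 difference of -0.79 ± 0.54. Gpx1, a glutathione peroxidase, was at -0.04 ± 0.65, close to 0 with an SE that does not exclude a difference of 1 log2 unit. Of the 6 peroxiredoxins, 5 were negative. Prdx4, the peroxiredoxin of the secretory pathway, had 250, 95 and 473 counts against 31, 137 and 53, a log2 difference of -1.93 ± 0.71 that became -0.64 without control 3. Glrx3, a glutaredoxin, was the member that separated the groups, at -0.96 ± 0.51, where 6.41% of all genes lay wholly below the controls.

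The medians of both metal handling lists lay near the all-gene median, while single members ran from -2.00 (Tfrc) to 2.63 (Slc30a7). Over the 19 genes of the metallothionein and zinc list the median was -0.09, and in 3 of them the treated libraries lay wholly below the controls and in 1 wholly above, against 6.41% and 3.70% of all genes. That median was positive in 4 of the 6 fits with 1 land library left out. The metallothioneins, which bind zinc and other metals and rise with metal load, had log2 differences of -0.07 ± 0.69 for Mt1 and -0.11 ± 0.59 for Mt2. Mt1 was at 363, 332 and 209 CPM in controls and 431, 244 and 189 CPM with nanoceria, and both signs turned when 1 library was left out. Slc30a1, the zinc exporter of the plasma membrane, had 103, 36 and 15 counts against 13, 20 and 10, with all treated libraries lower in CPM and a log2 difference of -1.25 ± 0.57. Its unadjusted p of 0.041 from edgeR became 0.20 without control 1, where the difference was -0.81. Over the 19 iron genes tested the median was 0.13, or -0.01 without nanoceria 3. The ferritin subunits Fth1 and Ftl1 were at 0.13 ± 0.63 and 0.29 ± 0.61. Tfrc, the transferrin receptor, had 269, 95 and 1037 counts in controls and 71, 324 and 28 with nanoceria, so its log2 difference of -2.00 ± 1.12 became 0.14 without control 3. Slc40a1, the iron exporter ferroportin, had 10, 17 and 9 counts against 8, 5 and 117, and its log2 difference of 2.28 ± 1.07 became -0.55 without nanoceria 3.

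Along the uptake route, 28 endocytosis genes had a median of 0.30, with 3 higher and 0 lower at an unadjusted p under 0.05 (5.36% and 4.88% of all genes), and the median was 0.12 without nanoceria 3 and 0.13 without control 2. Cdc42, the small GTPase of actin-driven uptake, had 523, 478 and 165 counts in controls and 857, 706 and 2002 with nanoceria. All treated libraries were above all controls, with a log2 difference of 2.15 ± 0.59 (edgeR adjusted p = 0.314) that ranged from 1.49 to 2.56 when any 1 land library was left out. Scarb2, a membrane protein of lysosomes, had 372, 132 and 344 counts against 227, 150 and 4430, so its log2 difference of 2.97 ± 1.05 became -0.18 without nanoceria 3. Flot1, a membrane scaffold, had 21, 12 and 3 counts against 18, 14 and 27, a log2 difference of 1.34 ± 0.64 whose unadjusted p of 0.049 in edgeR was 0.080 with DESeq2 and 0.18 with limma voom. The 34 lysosome and autophagy genes had a median of 0.15, or 0.03 without nanoceria 3, with 0 higher and 1 lower. That gene, Atp6v1h of the lysosomal proton pump, had 585, 150 and 85 counts against 44, 96 and 31, a log2 difference of -1.70 ± 0.55 that became -1.12 without control 1. Lamp1, a major protein of the lysosomal membrane, had 3744, 1423 and 332 counts against 501, 1105 and 1039, a log2 difference of -0.42 ± 0.71.

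**Figure D4:**
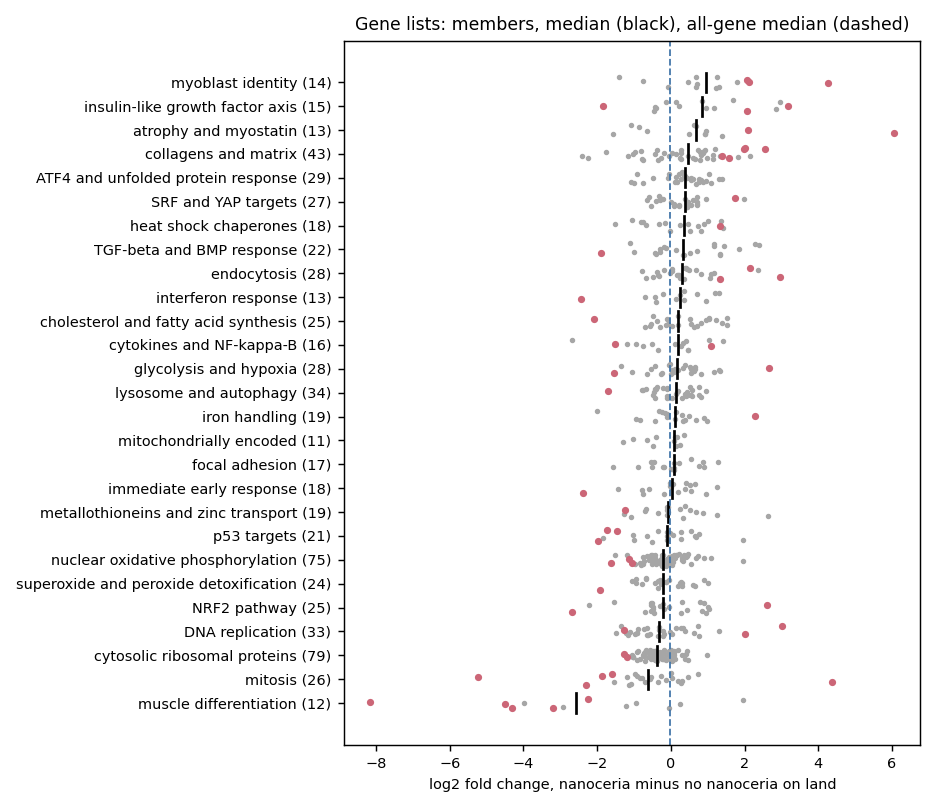
Log2 difference (nanoceria minus control on land) of each tested member of the 27 gene lists, with the number tested in brackets, members at an unadjusted p under 0.05 in red, list medians as black bars and the all-gene median of -0.03 as a dashed line. Most lists centre near that line, myoblast identity has the highest median (0.96) and muscle differentiation the lowest (-2.58).

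The medians of ribosomal genes and of nuclear oxidative phosphorylation genes lay below the all-gene median, and that of the mitochondrially encoded genes above it. Of 79 cytosolic ribosomal protein genes, 61 were negative (5933 of all 11558), with a median of -0.38. At an unadjusted p under 0.05, 2 were lower and 0 higher, against 4.88% and 5.36% of all genes. Rps27l was among the 2, at -1.18 ± 0.53, or -0.75 without control 2. Without nanoceria 3 the median was -0.10, with 46 negative, and without control 2 it was -0.15, with 50 negative, and 0 were lower in both cases. Their share of counts outside the dominant genes was 5.35% ± 2.01 (SD, n = 3) in controls and 2.78% ± 1.02 (SD, n = 3) with nanoceria, and a 2-sided exact permutation test gave p = 0.2. Of 75 nuclear genes of oxidative phosphorylation, 51 were negative, with a median of -0.20. The median was -0.03 without control 2 and without nanoceria 1. At an unadjusted p under 0.05, 3 were lower and 0 higher, again against 4.88% and 5.36% of all genes. The 3 were Atp5c1 of ATP synthase (-1.61 ± 0.60, or -1.02 without control 2), Ndufv2 of complex I (-1.14 ± 0.48) and Cox7c of complex IV (-1.06 ± 0.49). This count depends on the fit. With limma voom 13 of the 75 were lower and 0 higher, with a median of -0.43, where 588 of 11558 genes were lower. From the land libraries alone 0 were lower. The 11 mitochondrially encoded genes tested had a median of 0.08, with 0 members at an unadjusted p under 0.05. Without nanoceria 3, which held the most of these transcripts among the treated libraries, the median was -0.74, with all 11 negative and 2 lower. With limma voom it was -0.37, with 9 negative and 2 lower. Their largest difference was in mt-Nd1 of complex I, at -1.31 on the log2 scale, and it turned to 0.52 without control 3.

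Cell cycle genes were mixed. The 26 mitosis genes tested had a median of -0.63, with 1 higher and 4 lower at an unadjusted p under 0.05 (5.36% and 4.88% of all genes), and all 8 cyclins and kinases among them were negative. Of the 12 spindle and kinetochore genes 5 were positive, and of the 4 exit genes 3 were. The list's median was -1.46 without nanoceria 3, and -0.37 with 0 members lower without control 3. From the land libraries alone it was -0.20 over 17 genes. Over the 4 genes with a mean of at least 50 counts in all 18 libraries it was 0.05. Top2a, the topoisomerase of dividing cells, had 118, 222 and 312 counts in controls and 33, 26 and 94 with nanoceria, with control 1 inside the treated range in CPM. Cenpe, a kinetochore motor, had 39, 21 and 33 counts against 4, 16 and 7, with all treated libraries lower and a log2 difference of -1.60 ± 0.75. Aurkb, a mitotic kinase, had 7, 0 and 4 counts against 0 in each treated library, so its summed level was at least 2.80-fold lower if 3 counts are allowed over the treated group. The member that was higher, Kif23, was the single-library gene of nanoceria 2 described above, and its log2 difference of 4.38 ± 1.78 became -0.60 without that library. Mki67, the proliferation marker, had 85, 15 and 48 counts against 30, 21 and 30 and a log2 difference of -0.34 ± 0.92. The 33 replication genes had a median of -0.32, or -0.78 without nanoceria 3, with 2 higher and 1 lower. Tyms, thymidylate synthase, had 36, 21 and 6 counts against 188, 128 and 20, above every control in CPM, with a log2 difference of 3.01 ± 1.08 that became 1.96 without nanoceria 1. Pcna, the sliding clamp, had 67, 72 and 60 counts against 15, 54 and 9, a log2 difference of -1.28 ± 0.59. Cdkn1a, the inhibitor p21, was at 0.06 ± 0.56.

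Matrix genes had a median of 0.47 over 43 members, with 5 higher and 0 lower at an unadjusted p under 0.05, against 5.36% and 4.88% of all genes, and 28 members were positive (5589 of all 11558), among them 13 of the 16 collagens tested. The direction of the list rests on nanoceria 3: without it the median was -0.77, with 13 positive and 30 negative, and 4 higher and 9 lower at an unadjusted p under 0.05, while the all-gene median was -0.14. Without control 2 the median was 0.17, and without control 3 it was 1.24. Loxl1, a cross-linking enzyme, had 92, 41 and 34 counts in controls and 41, 72 and 230 with nanoceria, and its log2 difference of 1.59 ± 0.67 became 0.39 without nanoceria 3. Fbn1, the microfibril protein, had 110, 14 and 48 counts against 437, 45 and 103, a log2 difference of 2.55 ± 0.92 that became 0.87 without nanoceria 1. P4ha2, which hydroxylates collagen, turned from 2.02 ± 0.84 to -0.32 without nanoceria 1. Summed fibroblast markers were at 28.1 to 41.1 CPM outside the dominant genes in controls and 5.01 to 15.1 with nanoceria, with 1 of the 6 markers at 0 in all land libraries, and their part in the matrix values was not tested.

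Among stress and signalling lists, the p53 targets had a median of -0.10 over 21 members, or 0.08 without nanoceria 3. At an unadjusted p under 0.05, 3 were lower and 0 higher, where the shares of all genes were 4.88% and 5.36%. Eda2r, a death receptor, had 182, 96 and 124 counts in controls and 37, 60 and 5 with nanoceria, a log2 difference of -1.73 ± 0.68. Ei24, of the autophagy machinery, had 909, 269 and 124 against 71, 198 and 63, at -1.45 ± 0.64. Without control 1 the Ei24 difference was -0.92, with an unadjusted edgeR p of 0.20. All treated libraries were below all controls in CPM for both genes, as for 6.41% of all genes. Fos, the immediate early factor, had 71, 29 and 21 counts against 1, 11 and 6, again with no overlap and a log2 difference of -2.37 ± 0.81 that ranged from -1.94 to -2.75 when any 1 land library was left out. Hsf1, the regulator of heat shock genes, had 43, 20 and 10 counts against 31, 46 and 50 and a log2 difference of 1.34 ± 0.51, above every control in CPM. Csf1, a growth factor of macrophages, was likewise above every control, with 468, 206 and 83 counts against 270, 453 and 359 and a log2 difference of 1.08 ± 0.47. Vegfa, the angiogenic factor, was at 1.16 ± 0.64 with overlapping groups. Hk2, a hexokinase, had 1363, 980 and 1036 counts against 11799, 2996 and 92, and its log2 difference of 2.68 ± 1.11 became 0.28 without nanoceria 1. The heat shock list had a median of 0.35 (0.13 without nanoceria 1, 0.11 without nanoceria 2) with 1 member higher, and the glycolysis and hypoxia list 0.16 with 1 higher and 1 lower. The lists of interferon, TGF-beta, SRF and YAP targets, sterol synthesis and focal adhesion genes had medians from 0.08 to 0.39 with at most 1 member in either direction. Without nanoceria 3 all 5 of these medians were negative, from -0.82 to -0.06.

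The log2 differences on land were nearly uncorrelated with those of nanoceria in space, which come from other libraries in the same fit. Across 11558 genes Pearson's r between them was -0.006 for space without gravity and 0.045 for space with gravity. This is a description, since genes are not independent replicates. With a common biological coefficient of variation of 0.659, an r near 0 cannot show that the responses differ. In space with gravity, replicate 3 of the treated group held only 23858 counts, and these values were not recomputed without it. Of the 1183 genes at an unadjusted p under 0.05 on land, 619 (52.3%) had the same sign in space without gravity and 615 (52.0%) in space with gravity. The edgeR test of the difference between the nanoceria effects passed for 0 genes in either case, with 785 and 784 genes at an unadjusted p under 0.05 and smallest adjusted p of 0.441 and 0.682. The DESeq2 Wald test gave 37 and 12 calls. Muscle differentiation, the lowest list on land at -2.58, had medians of 0.29 and 0.92 in the 2 space comparisons, and myoblast identity had 0.22 and -0.15. Slc7a11 was at 0.33 without gravity and -0.29 with it, and Sowahc at 0.14 and -1.28.

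**Figure D5:**
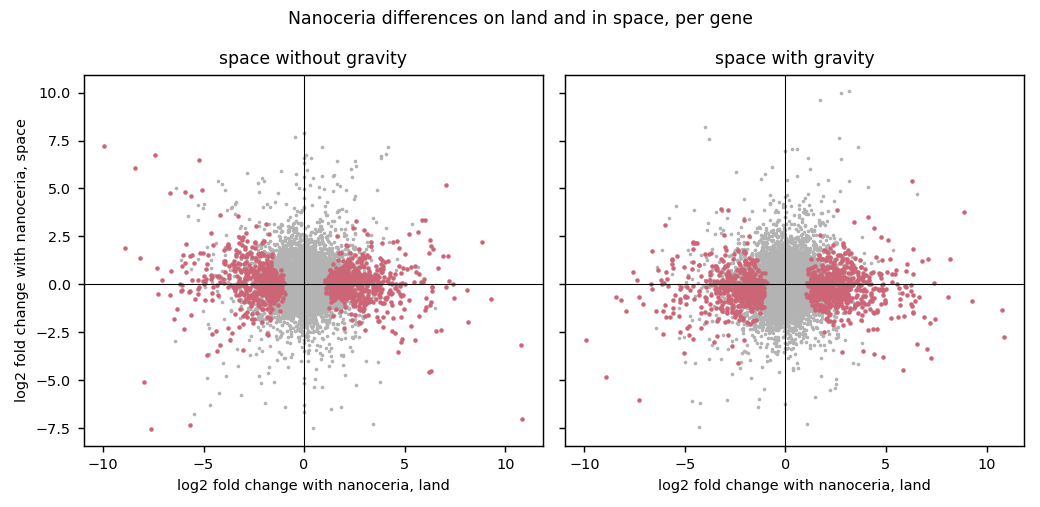
Log2 difference with nanoceria on land (horizontal) against that in space without gravity (left) or with gravity (right) for 11558 genes, with genes at an unadjusted p under 0.05 on land in red. The points form no diagonal, matching r of -0.006 and 0.045.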

How the data were processed

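The values the authors deposited are raw read counts for each Ensembl gene, and each file holds 1 library, per the file headers. Polyadenylated RNA, purified by mirVana PARIS, went into NEBNext Ultra libraries according to the labels' protocols. The submitters' processing notes name CASAVA, Trimmomatic 0.36.29, STAR, Subread, featureCounts and GRCm38.p6. The use of strand is not given in the sources used here, so overlapping and antisense genes cannot be told apart.

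The counts were fitted with edgeR 4.0.16 in R 4.3.3: filterByExpr over 6 groups left 11558 genes, libraries were scaled by TMM, and a group-means quasi-likelihood model over all 18 libraries gave 12 residual degrees of freedom, so the space groups helped to set the spread. The threshold was a Benjamini-Hochberg adjusted p of 0.05. Each SE of a log2 difference was derived from the test, as its absolute value divided by the square root of the quasi-likelihood F statistic. For a gene with a group near 0 counts, it need not measure the spread of the log2 difference. Groups came from the labels, and replicate numbers followed record order. Single shares were compared by 2-sided exact permutation tests, and single-library percentages have Wilson 95% intervals. These cover counting error only, since reads carry no molecular identifiers. Alternatives were DESeq2 1.42.0, limma 3.58.1 voom with quality weights, DESeq2 size factors, other filters, fewer libraries, and leaving out each replicate. The fit was also run on simulated data, and the outcome is not given here, so how large a difference it could call is not stated.

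Named genes were the 12 with the smallest p in each direction among genes with a symbol, a mean of at least 20 land counts and groups that do not overlap, a fixed set of 22 genes, the 3 members with the smallest p in each of 27 lists, and the 2 genes with the smallest p for each difference from space. Other genes named were chosen after their values were seen. The members and lists were chosen with earlier results of these data known. Small RNA libraries were not analysed here. Some results for named genes are not reported here.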

Additional observations from a re-analysis of the deposited data

Results flagged for a closer look

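Listed here are named genes in which every treated library lay on one side of every control on land and on the opposite side in a space comparison. No test of such a difference passed the adjustment over all genes in edgeR. In space with gravity, replicate 3 of the treated group held 23858 counts, so 3 counts there equal 165 CPM outside the dominant genes. How far its depth sets the order in the values against space with gravity was not tested. Igf1r, the growth factor receptor, was at 3.17 on land, at -0.78 in space without gravity (adjusted p of the difference 0.467) and at -0.64 in space with gravity (adjusted p 0.682). Myf5, the myogenic factor, was at 2.07 on land and -1.77 in space with gravity, with an unadjusted edgeR p of the difference of 0.00043 and an adjusted p of 0.682. Crebbp, the acetyltransferase, was at 2.78 on land and -0.80 in space with gravity, and Csf1 at 1.08 and -0.66 (adjusted p 0.682 for both). Btc was at -5.59 on land and 1.53 in space without gravity (adjusted p 0.492), and Nuf2, a kinetochore protein, at -2.30 and 0.48 (adjusted p 0.750).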

How the results depend on the processing

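No paired analysis was possible because nothing in the labels ties a treated library to a control, and numbers follow record order. Genes past the adjusted threshold numbered 0 in edgeR, 164 with the DESeq2 Wald test, 502 without the filter on low counts, and 0 to 1 when each land replicate was left out. Of the 164, 44 were single-library genes, and of the 502, 258 had over 80% of their land counts in 1 library. Genes at an unadjusted edgeR p under 0.05 numbered 1183 of 11558 tested in the full fit and 2081 of 25194 without the filter. They numbered 758 of 5850 at a mean of at least 50 counts over all 18 libraries, and 520 of 9315 from land libraries alone. Of such genes, 52.3% were higher in the full fit, 42.1% without control 2 and 64.4% without control 3. Non-overlapping genes numbered 1169 of 11558 in the main scaling. Among the smaller set of genes with a mean of at least 50 counts over the land libraries they numbered 430. The size of that set is not given here, so the 2 counts cannot be compared as shares. Calls for a difference from space were 37 and 12 of 11558 genes with DESeq2 and 320 and 268 of 25194 without the filter. The dominant share difference of 0.262 points was -18.4 relative to the other counts and -7.58 to 5.73 with replicates left out. The cause of these shifts was not tested.

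Of 126 gene results, 968 recomputed values outside the replicate omissions gave 59 newly past the adjusted threshold, all with the DESeq2 Wald test or without the filter on low counts. With a replicate left out, 2 were newly past it, Ing3 and Gm12319. Outside those omissions, 11 values were of opposite sign: Sod2 -0.286, Fth1 -0.221, Mki67 0.323, Cdkn1a -0.0509 and Slc40a1 -0.125 with voom, Cdkn1a -0.0111 at a mean of 50 counts, Cav1 -0.0280 without the filter, and Gpx1 0.0372 and 0.0415 and Mt1 0.0318 and 0.0304 without the smallest library and from land libraries alone. With 1 replicate left out, log2 differences ranged from -0.0676 to 1.85 for Nqo1, -0.340 to 1.29 for Txnrd1, -0.515 to 0.992 for Sod2, -0.245 to 0.270 for Gpx1, -0.470 to 0.197 for Mt1, -0.736 to 0.347 for Mt2, -0.0984 to 0.542 for Fth1, -2.89 to 0.141 for Tfrc, -0.819 to 0.0641 for Lamp1, -0.986 to 1.31 for Cav1, -7.72 to 0.740 for Myod1, -0.705 to 0.0964 for Mki67 and -0.197 to 0.333 for Cdkn1a. They ranged from -0.446 to 3.15 for Bach1, -2.07 to 4.02 for Slc30a7, -0.546 to 2.82 for Slc40a1, -0.182 to 3.60 for Scarb2, -2.12 to 0.517 for mt-Nd1, -0.601 to 4.97 for Kif23, -0.360 to 2.73 for Gins3, -0.321 to 2.59 for P4ha2, -0.510 to 2.67 for Mef2a, -2.39 to 7.66 for Six4, -0.303 to 2.06 for Nfkb2, -0.316 to 1.38 for Ifitm3 and -0.110 to 1.45 for Itga5. Of 27 list medians, 15 changed sign when at least 1 land library was left out, 12 of them without nanoceria 3. List medians moved beyond the spread in 13 of 216 recomputed values and in 15 of 162 with a replicate left out.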

Other observations

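Genes with the smallest p for a difference between the nanoceria effects on land and in space included Ing3 and Ccl25 against space without gravity and Siah1b against space with gravity. Ccl25, a chemokine, had 7, 154 and 253 counts in land controls and 5, 4 and 6 with nanoceria, a log2 difference of -4.76 ± 1.11, and stood at 1.53 in space without gravity. Siah1b, a ubiquitin ligase, had 4, 6 and 6 counts in controls and 0 in each treated library, so its level is bounded by depth. None of these 3 passed the adjustment over all genes in edgeR (smallest adjusted p 0.441 and 0.682).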
